A study of Mus musculus with 93 samples.

Results

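Tissue macrophages of the mouse were compared between postnatal day 21 (P21, 9 libraries) and postnatal day 2 (P2, 11 libraries) in brain, kidney, liver, lung and skin. These are all the libraries of the 93 in the series that the labels give as macrophages (Mac) of those 5 tissues at those ages, so 20 of 93 entered the tests. Another 9 libraries of P8 from the same tissues are shown as an intermediate age and were not tested. Brain, kidney and liver have 2 libraries at each age. Skin has 3 at P2, 2 at P8 and 2 at P21, and lung has 2 at P2 and 1 each at P8 and P21. The cells were sorted, and their polyA RNA was read by SMART-Seq2, which copies whole transcripts from few cells. The labels give cell type, tissue and age, and no strain, sex, treatment or sort gate. The series description says that technical and biological replicates are both present without saying which are which, so p-values measure the spread between these libraries, which may be technical.

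Tissue macrophages are seeded before birth by precursors that settle in each organ, divide there and take on a different gene programme in each: microglia in brain, Kupffer cells in liver, alveolar macrophages in lung and Langerhans cells in the epidermis. The weeks between birth and weaning are the time in which the organs themselves grow and mature. MHC class II molecules present peptides to helper T cells. Their alpha and beta chains (H2-Aa, H2-Ab1, H2-Eb1) are assembled on the invariant chain Cd74, loaded with the help of H2-DM, and transcribed under the control of the coactivator Ciita, whose partners bind the X and Y boxes of their promoters. Genes of mitosis are held off in resting cells through CHR elements in their promoters, and genes of DNA replication through E2F sites. Many promoters of mitosis genes also hold CCAAT boxes.

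Values below are gene levels on a log2 scale, so a difference of 1 is a doubling; base 2 was taken from the range of the values, and no label states it. A level of 5.41 is the floor, at or under which a gene counts as not detected, and where a group lies there the size of its difference is a lower limit. Levels of different genes are not corrected for transcript length and are not compared with each other. Calls required a p of limma, adjusted by Benjamini-Hochberg, under 0.05 together with a log2 difference of 1 or more in size. In bulk RNA, fewer cells of a type and less RNA per cell cannot be told apart.

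The labelled cell type was checked against Csf1r, the receptor of the growth factor that macrophages depend on, and Cd74. Csf1r was between 14.67 and 17.67 in all P2 and P21 libraries of brain, kidney, liver and skin and between 11.61 and 13.52 in those of lung. Its log2 difference between P21 and P2 was 0.88 over the 5 tissues (adjusted p = 0.238, limma). Cd74 was not a common marker: it was above 17 in every skin library and under 11 in every P2 and P21 library of brain and lung. Genes of tissue identity followed the labels, with Sall1, the microglial transcription factor, at 12.85 to 14.25 in all 6 brain libraries and Clec4f, the Kupffer cell lectin, at 14.33 to 17.7 in all 6 liver libraries. The libraries held 14347 to 24115 transcripts above the floor, with a median of 20352 at P2 and 18630 at P21, and 9 of the 29 held fewer than 18000. The direction differed by tissue. Kidney held 14819 and 17091 at P2 and more at P21 (19117 and 19756). Brain held 23383 and 23081 at P2 and fewer at P21 (18630 and 18527). Liver (17092 and 21540 against 14768 and 16122) and lung (18192 and 17166 against 14347) were also lower at P21, and the skin groups overlapped. The part of these differences in the calls within tissues was not tested. Replicates differed by very different amounts: the SD of the log2 difference between the 2 libraries of a group was 2.49 in kidney P2, 2.4 in liver P21 and 1.85 in liver P2, against 0.97 in brain P2 and 0.93 in skin P21.

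Few genes passed the test for a difference shared by the tissues. With tissue as a covariate, 1 of 9084 genes tested (0.011%) was called, and it was lower at P21. At an unadjusted p under 0.05 there were 875 genes. The count of called genes was 33 for the unweighted mean of the tissues, 37 after quantile normalization and 270 with library weights. The low count therefore does not show that the tissues share few changes. The called gene was Cenpc1 (chr5:86012024-86065583, mm10), which encodes an inner kinetochore protein that links centromeric chromatin to the spindle. In kidney its level was 10.51 and 11.17 at P2 and at the floor in both P21 libraries. In brain it was 9.23 and 8.08 at P2 and again at the floor at P21. In skin it was 10.45, 8.66 and 8.08 at P2 and 5.41 and 5.59 at P21. The P2 and P21 libraries of Cenpc1 did not overlap in any tissue, although the lung libraries were already low at P2 (6.2 and 6.67, against 5.41 at P21). The shared log2 difference was -3.5 ± 0.57 (SE; adjusted p = 0.0182, limma). Cenpc1 reached the level for testing largely through P2 libraries, where it was high. The P21 libraries at the floor show no spread, so this p-value can be too small. At P8 Cenpc1 was at 11.69 and 11.06 in liver and 8.81 and 8.72 in skin, and at 8.72 in lung, above both lung P2 libraries. The call was lost without brain P21 1, kidney P21 1, kidney P21 2, skin P21 1 or skin P21 2 (adjusted p 0.0526 to 0.0862), and the log2 difference then lay between -3.52 and -3.36. It was also lost without all brain libraries (adjusted p = 0.128) or all kidney libraries (0.0547, limma). Without all liver or all skin libraries Cenpc1 did not reach the level for testing.

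**Figure D1:**
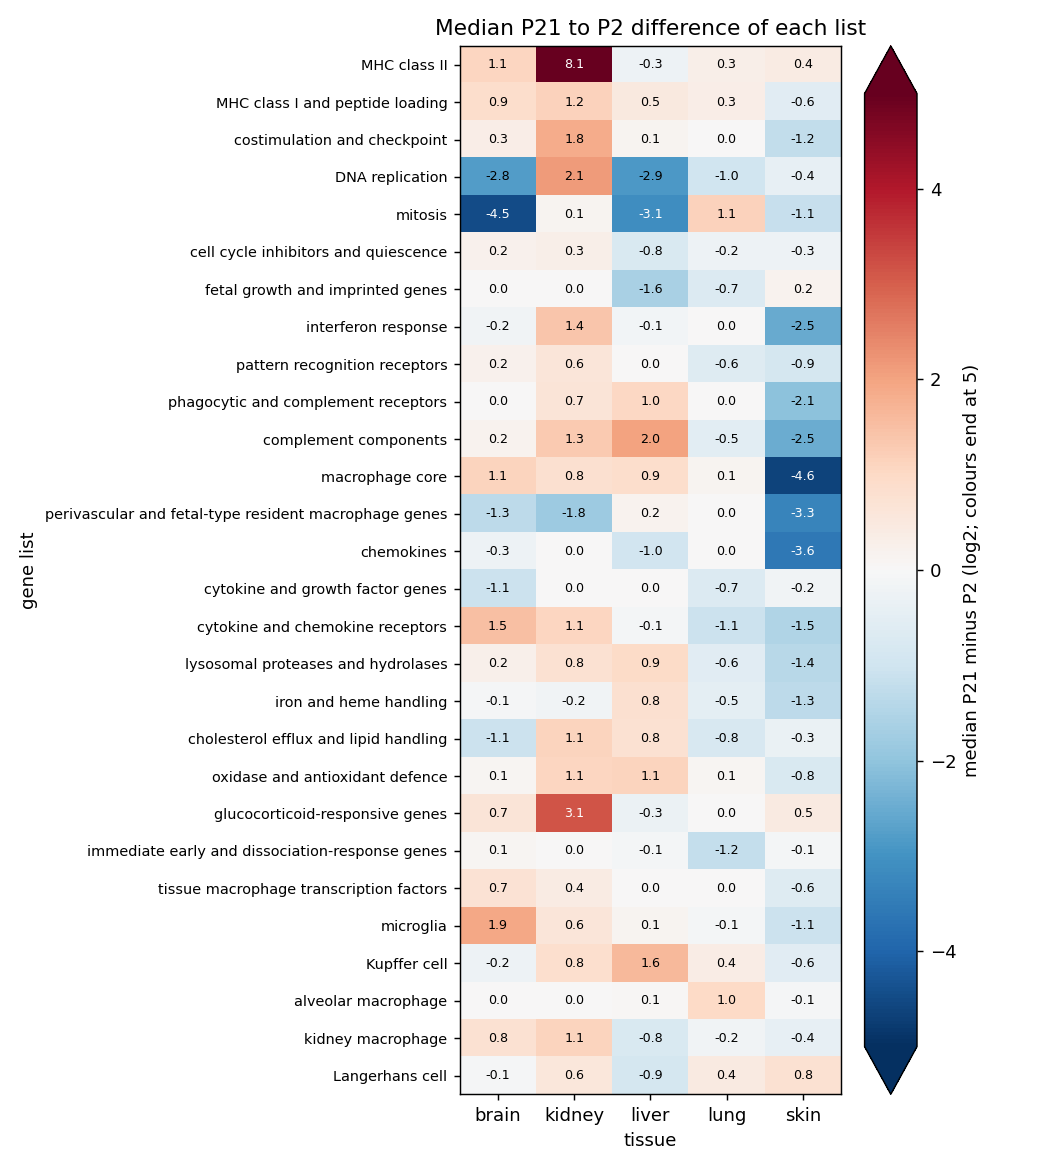
Median log2 difference between P21 and P2 over the tested genes of each list (rows) in each tissue (columns); red is higher at P21 and blue lower. MHC class II stands out in kidney (median 8.14), macrophage core genes in skin (-4.63) and mitosis in brain (-4.46), while mitosis in liver (-3.09) is also low.

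Lists of genes with a common role moved unequally in the 5 tissues, as the map of list medians shows. In the comparison shared by the tissues none of their members was called; Cenpc1 is in no list. By sign alone, 27 of 28 tested mitosis genes were lower at P21 (median log2 difference -1.37), as were all 9 tested chemokines (-0.93) and 10 of 12 genes of perivascular and fetal-type macrophages (-1.62), while 7 of 8 MHC class II genes were higher (2.6). The median of all genes tested was -0.09. Mrc1, the mannose receptor, had a log2 difference of -2.41 (adjusted p = 0.157), and Lyve1, the hyaluronan receptor of perivascular macrophages, one of -2.87 (adjusted p = 0.248, limma).

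More genes passed the test for an age difference that was unequal between tissues. The age-by-tissue F test in limma passed for 636 of 12919 genes tested (4.92%). Without skin it passed for none of 12106 genes (1606 at an unadjusted p under 0.05), without skin P21 1 for 173 and without skin P21 2 for 188. For genes at the floor in most groups, the libraries there show no spread, which makes the standard errors too small; with only genes at 6.41 or above in at least 9 libraries, 133 of 9084 passed.

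Each tissue was therefore also described by its own contrast, taken from a fit with 1 mean per tissue and age. These contrasts were added after the data were seen, and their p-values are adjusted over genes within a tissue and not over the 5 tissues. In brain 72 of 12919 genes were called (0.557%), in kidney 504 (3.9%), in liver 287 (2.22%), in lung 36 (0.279%) and in skin 410 (3.17%). All of them use a common estimate of the spread, although kidney and liver replicates varied more than those of brain and skin. With weights estimated for each library, 73, 49, 72, 239 and 1039 genes were called in the same order. Leaving out 1 library changed the counts in brain (26 without P2 1, 31 without P2 2), kidney (141 without P21 1, 817 without P21 2), lung (13 without P2 2) and skin (99 without P21 1, 91 without P21 2).

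The division into higher and lower also moved with the scaling of the libraries. Of the called genes, 87.3% were higher at P21 in kidney, 36.2% in liver, 54.2% in brain, 55.6% in lung and 77.8% in skin. With libraries centred on their median these shares were 75.3, 47.4, 43.1, 72.5 and 81.7%, and after quantile normalization 75.1, 56.6, 49.5, 62.2 and 68.1%. The median of all genes in kidney was 0.38 as deposited and 0 after centring, and in liver -0.26 and -0.04. The called differences of single genes given below are several times larger than these shifts, and where such a call was lost under either scaling that is said. Medians and sign counts of lists can be of the size of the shifts, and some list medians changed sign with the scaling.

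Kidney macrophages gained the MHC class II genes between P2 and P21. All 10 genes of the list had a higher mean at P21, and 7 of them rose past the test: Cd74, H2-Aa, H2-Ab1, H2-Eb1, H2-DMa, H2-DMb1 and Ciita, where 3.41% of all genes were called higher. The median log2 difference of the list was 8.14, against 0.38 for all genes. The promoters of H2-Eb1 and H2-Aa (RefSeq, GRCm38.p6, from 250 bases before to 50 after the first listed start) are shown because the X and Y boxes lie there. Capitals mark AGCAAC, the core of the X box, and CCAAT, the Y box letters, on either strand. The first is chr17:34305617-34305916 on the plus strand and the second chr17:34287774-34288073 on the minus strand.
H2-Eb1: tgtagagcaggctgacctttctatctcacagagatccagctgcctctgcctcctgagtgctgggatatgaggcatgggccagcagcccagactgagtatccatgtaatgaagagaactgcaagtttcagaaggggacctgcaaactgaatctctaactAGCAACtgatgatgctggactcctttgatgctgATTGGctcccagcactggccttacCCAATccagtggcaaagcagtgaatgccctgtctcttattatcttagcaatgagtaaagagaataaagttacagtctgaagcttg
H2-Aa: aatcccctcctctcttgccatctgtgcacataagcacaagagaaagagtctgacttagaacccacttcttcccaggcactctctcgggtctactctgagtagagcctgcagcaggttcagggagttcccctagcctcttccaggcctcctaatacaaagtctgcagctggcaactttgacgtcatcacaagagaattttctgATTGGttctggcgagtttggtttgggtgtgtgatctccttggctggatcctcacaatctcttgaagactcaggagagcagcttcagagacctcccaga
The letters AGCAAC were found in 3 of 7 MHC class II promoters (42.9%) and in 14.8% of the promoters of all 27025 genes, and CCAAT in 6 of 7 (85.7%) against 37.9%. The 3 were H2-Eb1, H2-Oa and H2-Ob, of which H2-Eb1 alone was called in kidney. No promoter was available for Cd74, H2-Ab1 or Ciita. The H2-Eb1 window holds AGCAAC once and CCAAT or its reverse on 2 occasions, and the H2-Aa window holds the reverse of CCAAT once and no AGCAAC.

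Cd74 in kidney was 6.33 and 9.47 at P2, 9.84 and 12.72 at P8, and 18.56 and 18.31 at P21. The P21 libraries were thus far above both P2 libraries, and the P8 libraries lay between them. The log2 difference was 10.53 ± 0.94 (SE; adjusted p = 6.69e-05, limma). H2-Eb1 went from 5.89 and 6.89 at P2 through 7.78 and 8.34 at P8 to 17.31 and 16.93 (log2 difference 10.73 ± 1.08, adjusted p = 9.88e-05, limma). H2-Aa was 6.22 and 5.84 at P2 and 17.24 and 16.97 at P21 (11.07 ± 1.74, adjusted p = 0.0035, limma), and H2-Ab1 was 5.86 and 7.29 against 17.56 and 17.51 (10.96 ± 1.84, adjusted p = 0.00544, limma). For these chains most of the distance lay between P8 and P21. For the peptide-loading pair a larger part of it was present at P8. H2-DMb1 was 5.41 and 5.9 at P2, 9.78 and 10.48 at P8 and 14.47 and 13.39 at P21 (8.27 ± 0.95, adjusted p = 0.000238, limma). H2-DMa ended 8.01 ± 0.89 above P2 (adjusted p = 0.00019, limma).

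The calls of Cd74, H2-Aa, H2-Ab1, H2-Eb1, H2-DMa and H2-DMb1 in kidney held without each of the 4 kidney libraries, with library weights and under both scalings. Ciita was at the floor in all 4 kidney libraries of P2 and P8 and at 10.67 and 12.34 at P21 (6.09 ± 1.33, adjusted p = 0.0222, limma), and its call was lost without any 1 of the 4 libraries (adjusted p up to 0.0691) and under both scalings (0.0556 and 0.0567).

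**Figure D2:**
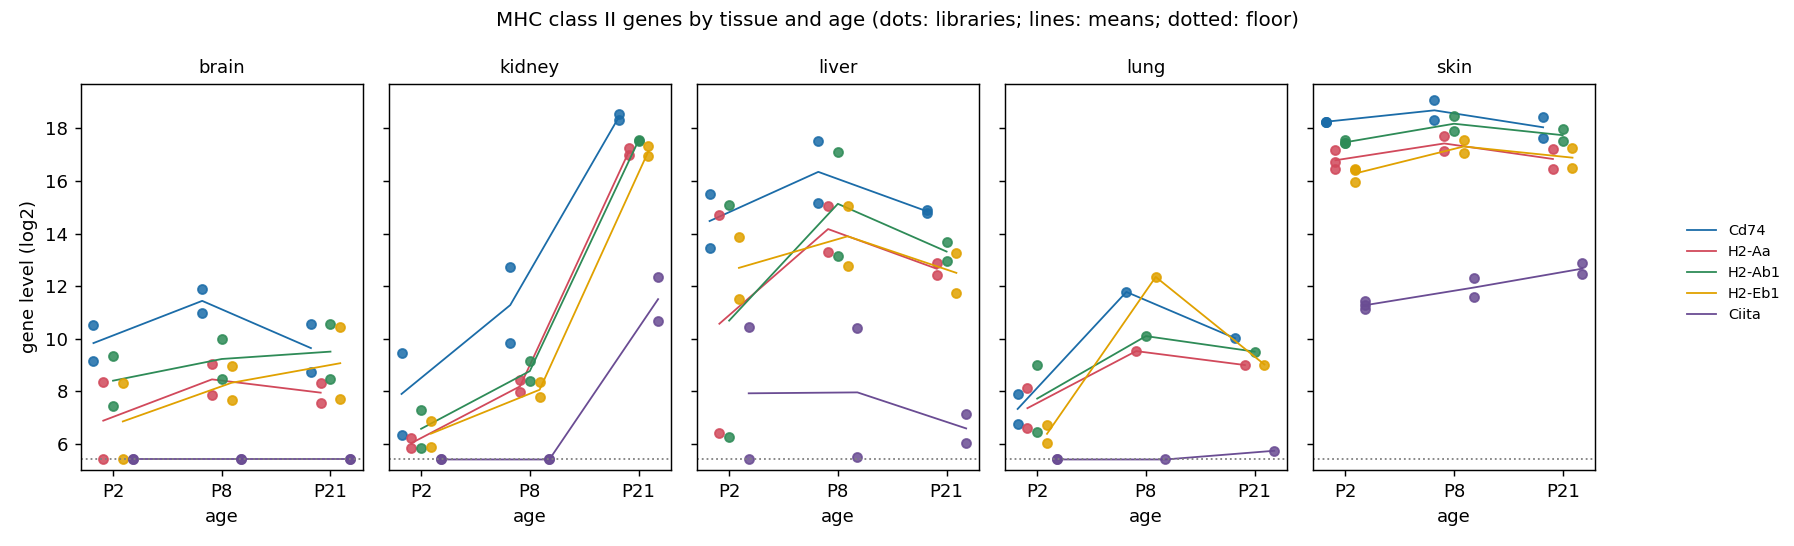
Levels (log2) of Cd74, H2-Aa, H2-Ab1, H2-Eb1 and Ciita in each library (dots) with the mean of each age (lines), by tissue. In kidney Cd74 goes from 6.33 and 9.47 at P2 to 18.56 and 18.31 at P21, a level that the skin libraries have at every age.

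The other tissues showed no such difference. In skin Cd74 was 18.25, 18.24 and 18.26 at P2 and 18.45 and 17.63 at P21 (log2 difference -0.21 ± 0.85, adjusted p = 1, limma), and Ciita was above 11 in all 7 skin libraries. In liver the P2 replicates themselves disagreed: H2-Aa was 6.43 in liver P2 1 and 14.71 in liver P2 2, so the groups overlapped, and the second of these libraries also held markers of several other blood cells. In brain Cd74 was 9.16 and 10.51 at P2 and 10.57 and 8.72 at P21, and Ciita was at the floor throughout. In lung Cd74 was 6.77 and 7.89 at P2 and 10.02 in the P21 library (2.68 ± 1.15, adjusted p = 0.424, limma). The F test for unequal differences between tissues gave an adjusted p of 0.00108 for Cd74 and 0.00328 for H2-Eb1 (limma). Over all 29 libraries and with each tissue's mean removed, the genes whose levels followed Cd74 most closely among 10411 were H2-Eb1 (Pearson r = 0.93), H2-Ab1 (0.88) and H2-Aa (0.88). The points share libraries, so no test is given.

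Some genes of cytokine signalling and lipid handling rose in kidney as well. Tgfbr2, a receptor chain for TGF-beta, was 7.42 and 7.92 at P2, 11.13 and 12.18 at P8 and 13.48 and 13.39 at P21 (5.77 ± 0.86, adjusted p = 0.00221, limma). Lpl, lipoprotein lipase, rose by 4.34 ± 0.63 from 9.34 and 10.31 (adjusted p = 0.00167, limma). Of the 22 tested genes of cholesterol efflux and lipid handling, 13 were higher at P21. Called were 3, among them Lpl and Abcg1, where 3.41% of all genes were called higher. Lpl alone kept its call after centring or quantile normalization. The median of the list was 1.12, against 0.38 for all genes, and went to 0.49 and -0.24 under those scalings. Spp1, which encodes osteopontin, was at 5.64 and 5.41 at P2 and at 13.42 and 11.7 at P21 (7.04 ± 0.94, adjusted p = 0.000877, limma). The calls of Tgfbr2, Lpl and Spp1 held without each kidney library. Csf2rb, the common beta chain of the GM-CSF receptor, rose by 4.62 ± 0.84 (adjusted p = 0.00897, limma; 0.0744 after quantile normalization). The inflammatory chemokine receptor Ccr2 (5.66 and 5.41 against 11.42 and 10.89) rose too, but its call was lost under either scaling and without kidney P2 1, kidney P2 2 or kidney P21 1 (adjusted p up to 0.145). Among chemokines, where 0.495% of all genes were called lower in kidney, Ccl7 fell, from 13.2 and 10.68 to the floor in both P21 libraries (-6.53 ± 1.07, adjusted p = 0.00434, limma). Of the 24 tested receptors of cytokines and chemokines, 19 had a higher mean at P21. Of these receptors 4 were called higher (2 after centring and 1 after quantile normalization), where 3.41% of all genes were.

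RNA of kidney tubules rose beside these genes. All 5 tested kidney epithelium genes were called higher (4 after centring and 3 after quantile normalization), where 3.41% of all genes were. Slc12a3 and Cubn reached the level for testing through kidney P21 alone and could not be tested without either of its libraries. Their p-values are therefore too small. The call of Lrp2 was lost without kidney P2 2 or kidney P21 1 (adjusted p up to 0.242, limma). The mean level of the list was 6.31 and 5.41 at P2, 7.51 and 7.19 at P8 and 11.33 and 9.14 at P21. Slc34a1, the phosphate transporter of the proximal tubule, was at the floor in both P2 libraries and at 12.99 and 10.48 at P21 (6.32 ± 0.71, adjusted p = 0.00019, limma). Gpx3, a secreted glutathione peroxidase made mostly by the proximal tubule, was 5.96 and 6.3 at P2 and 16.65 and 14.55 at P21 (9.48 ± 1.67, adjusted p = 0.00677, limma; 0.0792 without kidney P21 1). Hbb-bs, a beta globin whose reads a near-identical copy can share, rose by 6.48 ± 1.57 (adjusted p = 0.0362, limma), with kidney P2 2 at 13.04 and kidney P2 1 at 6.8; the call was lost without kidney P2 1 or kidney P21 1 (adjusted p up to 0.207). The endothelium list had a mean of 10.05 in kidney P21 1 and of 5.59 to 6.16 in the other 5 kidney libraries. The part of these cells in the MHC class II result was not tested.

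Brain macrophages lost mitosis genes. All 30 tested genes of the list had a lower mean at P21, with a median log2 difference of -4.46 against 0 for all genes, and 3 fell past the test (Top2a, Cenpa and Cenpe), where 0.255% of all genes were called lower. The promoters of Top2a (chr11:99024140-99024439, minus strand) and Cenpa (chr5:30666636-30666935, plus strand), from the same RefSeq table, are shown for the CHR letters TTTGAA and the CCAAT box, in capitals on either strand.
Top2a: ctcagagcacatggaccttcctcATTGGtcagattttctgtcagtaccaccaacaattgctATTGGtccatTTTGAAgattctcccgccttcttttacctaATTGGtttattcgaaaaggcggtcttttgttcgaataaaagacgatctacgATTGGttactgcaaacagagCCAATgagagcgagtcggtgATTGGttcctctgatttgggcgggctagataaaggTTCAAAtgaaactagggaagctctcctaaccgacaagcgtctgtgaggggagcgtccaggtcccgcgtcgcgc
Cenpa: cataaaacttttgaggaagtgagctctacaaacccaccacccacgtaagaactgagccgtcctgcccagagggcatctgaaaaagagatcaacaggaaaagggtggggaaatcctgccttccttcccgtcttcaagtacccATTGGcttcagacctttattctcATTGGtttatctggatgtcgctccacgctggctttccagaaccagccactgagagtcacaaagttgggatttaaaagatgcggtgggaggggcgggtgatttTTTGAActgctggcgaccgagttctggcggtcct
TTTGAA was found in 20 of 26 mitosis promoters (76.9%) and in 18.1% of those of all genes, and CCAAT in 21 of 26 (80.8%) against 37.9%. The E2F letters GCGGGAA were found in 11 of 23 promoters of DNA replication genes (47.8%) and in 4.7% of all. These are matches of letters, and Cenpe, which changed with the others, has no TTTGAA in its window.

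Top2a, the topoisomerase that untangles chromosomes in dividing cells, was 11.68 and 12.19 at P2, 12.19 and 12.49 at P8, and 5.41 and 5.64 at P21 in brain. The P8 libraries were at the P2 level, and the P21 libraries lay more than 6 log2 units below both. Its log2 difference was -6.41 ± 0.95 (adjusted p = 0.00525, limma; 0.0708 without brain P2 2). Cenpa, the centromeric histone H3 variant, went from 10.8 and 11.2 at P2 and 11.11 and 10.26 at P8 to 5.41 and 5.52 (-5.54 ± 0.98, adjusted p = 0.0169, limma), and Cenpe, a kinetochore motor, fell by 5.15 ± 1.03 (adjusted p = 0.0341, limma). Both calls were lost without any 1 of the 4 brain libraries (adjusted p up to 0.255). Mki67, the antigen of cycling cells, was 12.39 and 12.77 at P2, 13.56 and 12.62 at P8 and 6.29 and 7.13 at P21. Its groups did not overlap, but the difference of -5.87 ± 1.65 did not pass (adjusted p = 0.183, limma). DNA replication genes were lower in 26 of 27 cases in brain (median -2.78), and none was called.

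**Figure D3:**
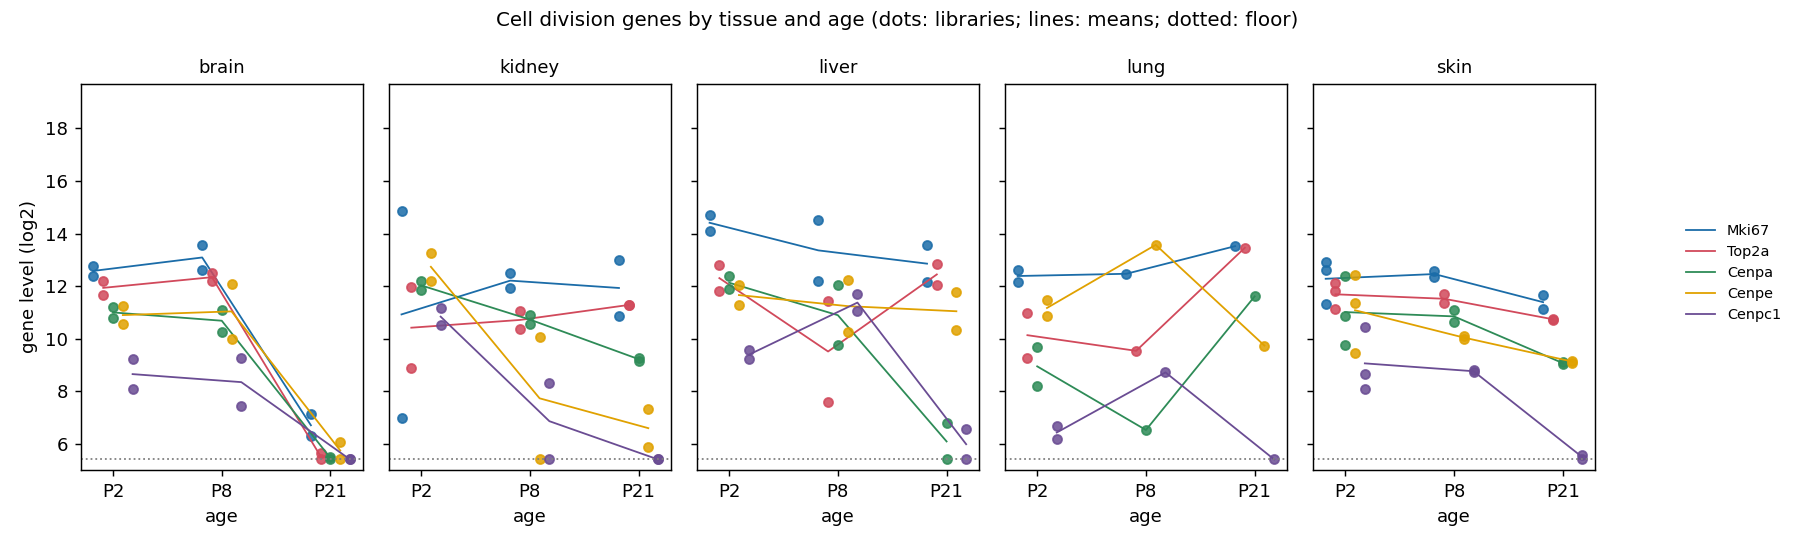
Levels (log2) of Mki67, Top2a, Cenpa, Cenpe and Cenpc1 in each library (dots) with the mean of each age (lines), by tissue. In brain Top2a and Cenpa are at their P2 level at P8 and within 0.3 of the floor of 5.41 at P21, whereas Top2a stays at 10.72 or above in the P21 libraries of the other tissues.

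Elsewhere the members of the list differed among themselves. In liver 28 of 30 mitosis genes and all 27 DNA replication genes had a lower mean at P21 (medians -3.09 and -2.87, against -0.26 for all genes), and Cenpa and Ccnf fell past the test (1.42% of all genes were called lower), Ccnf only with all 4 liver libraries (adjusted p up to 0.129 without 1). Cenpa in liver was 11.88 and 12.38 at P2 and 6.78 and 5.41 at P21 (-6.04 ± 0.98, adjusted p = 0.00326, limma). Top2a in liver was as high at P21 (12.84 and 12.05) as at P2 (11.8 and 12.81), with a log2 difference of 0.14 ± 0.95. In kidney, Cenpe fell by 6.14 ± 1.03 (adjusted p = 0.00531, limma), while the list as a whole had a median of 0.15 that turned to -0.2 after centring and -0.67 after quantile normalization. DNA replication genes had a higher mean at P21 in 22 of 27 cases in kidney (median 2.14; 17 and 0.99 after quantile normalization). Among the 27, 1 was called higher, where 3.41% of all genes were. The called one, Chaf1b, a histone chaperone chain, was 5.43 and 5.84 at P2 and 10.77 and 10.01 at P21 (4.76 ± 1.19, adjusted p = 0.0398, limma), a call lost without any 1 of the 4 kidney libraries and under both scalings. Kidney P2 1 stood apart here, with Mki67 at 7 against 14.85 in kidney P2 2. In skin 25 of 30 and in lung 10 of 30 mitosis genes were lower at P21, and none was called. The F test gave an adjusted p of 0.00786 for Top2a (limma).

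Of the 15 tested cytokine and growth factor genes 11 had a lower mean in brain at P21 (median of the list -1.06). Called lower were 3, Spp1, Igf1 and Tgfbi, where 0.255% of all genes were. Spp1 was 13.65 and 13.74 at P2, 16.12 and 15.22 at P8 and at the floor in both P21 libraries. Its mean was thus higher at P8 than at P2 before it was no longer detected. Its log2 difference between P21 and P2 was -8.28 ± 0.94 (adjusted p = 0.000745, limma), which held without each brain library. In kidney the same gene went the other way (7.04 ± 0.94, above), and the F test for Spp1 gave an adjusted p of 0.000443 (limma). Igf1, insulin-like growth factor 1, was 11.22 and 11.47 at P2, 12.32 and 10.13 at P8 and at the floor at P21 (-5.94 ± 1.04, adjusted p = 0.0166, limma). Tgfbi, a TGF-beta-induced matrix protein, fell by 5.05 ± 0.84 (adjusted p = 0.0127, limma). The calls of Igf1 and Tgfbi were lost without 4 and 3 of the 4 brain libraries. Mrc1 in brain was 10.7 and 12.3 at P2, 13.66 and 12.99 at P8 and 6.33 and 7.1 at P21 (-4.79 ± 1.06, adjusted p = 0.0658, limma), a difference that did not pass.

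Microglial genes were already detected at P2. Of the 18 tested, 17 had a higher mean at P21 (median 1.92; 13 of 18 and 0.91 after quantile normalization), and none was called, where 0.302% of all genes were called higher. Tmem119, a microglial surface protein, was 11.93 and 11.86 at P2 and 16.35 and 16.02 at P21 without passing the test (4.29 ± 1.85, adjusted p = 0.487, limma). P2ry12, the microglial purine receptor, was 14.34 and 14.9 at P2 and 15.9 and 15.25 at P21. Of 24 cytokine and chemokine receptor genes 22 had a higher mean at P21 in brain (median 1.49; 17 and 0.57 after quantile normalization), and none was called. Stmn2, a neuronal microtubule regulator, was 9.17 and 9.2 at P2 and 5.41 and 6.71 at P21 (-3.13 ± 0.47, adjusted p = 0.00556, limma). Syt1, a calcium sensor of synaptic vesicles, was 5.41 and 6.81 at P2 and 8.2 and 9.24 at P21 (2.61 ± 0.51, adjusted p = 0.0275, limma; 0.0616 after centring and up to 0.302 without brain P2 1 or brain P21 2). Of the 9 tested neuron and glia genes 5 were higher and 4 lower, with those 2 called. Of all genes in brain 0.302% were called higher and 0.255% lower. The mean of the list was 7.11 and 7.7 at P2, 9.42 and 8.55 at P8 and 6.93 and 7.99 at P21, and its part in these results was not tested.

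Skin libraries lost the genes by which most macrophages are recognised, while Csf1r and most Langerhans cell genes had no such difference. Of the 25 macrophage core genes 14 fell and none rose, also under both scalings (median -4.63 against 0 for all genes, with 0.704% of all genes called lower). For 8 of the 14 the call held without each of the 5 skin libraries. Fcgr3, a receptor for the Fc part of IgG, was 13.97, 12.16 and 12.25 at P2, 9.46 and 8.15 at P8, and at the floor in both P21 libraries. The 3 ages did not overlap and followed each other downward, with a log2 difference of -7.39 ± 0.61 between P21 and P2 (adjusted p = 8.11e-06, limma). The chains of complement C1q fell with it. C1qb was 15.95, 15.29 and 14.71 at P2, 11.64 and 10.11 at P8 and 10 and 6.55 at P21 (-7.04 ± 0.89, adjusted p = 0.00019, limma). C1qc fell by 6.8 ± 0.94 (adjusted p = 0.000377) and C1qa by 4.63 ± 0.59 (adjusted p = 0.000198, both limma).

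In skin 4 of 19 phagocytic and complement receptors and 3 of 24 cytokine and chemokine receptors were called lower, against 0.704% of all genes. Cx3cr1, the fractalkine receptor, was 13.1, 11.59 and 10.56 at P2, 6.3 and 6.6 at P8 and 5.89 and 5.96 at P21 (-5.83 ± 0.93, adjusted p = 0.00136, limma). Cd14, the coreceptor for lipopolysaccharide, was 10.58, 11.49 and 11.04 at P2, 7.54 and 7.94 at P8 and 5.41 and 5.58 at P21 (-5.54 ± 0.74, adjusted p = 0.000304, limma). Trem2, a lipid-sensing receptor, fell by 5.87 ± 0.81 to the floor (adjusted p = 0.000377, limma). The calls of Fcgr3, C1qa, C1qb, C1qc, Cx3cr1, Cd14 and Trem2 in skin held without each of the 5 skin libraries, with library weights and under both scalings. Mrc1 was 13.84, 11.7 and 11.37 at P2, 7.17 and 7.41 at P8 and 9.4 and 5.86 at P21 (-4.68 ± 0.97, adjusted p = 0.0103, limma; 0.386 at most without skin P2 1 or skin P21 2). In chemokines all 13 tested had a lower mean at P21 (median -3.57) and 3 fell, Ccl6, Ccl9 and Cxcl10. The call of Cxcl10 was lost without either P21 library, that of Ccl6 also without skin P2 1, and that of Ccl9 without any 1 of the 5 libraries and under both scalings (adjusted p = 0.0599 and 0.0773, limma). In the interferon response list 17 of 20 were lower (median -2.52), and 1 was called with all libraries as deposited.

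**Figure D4:**
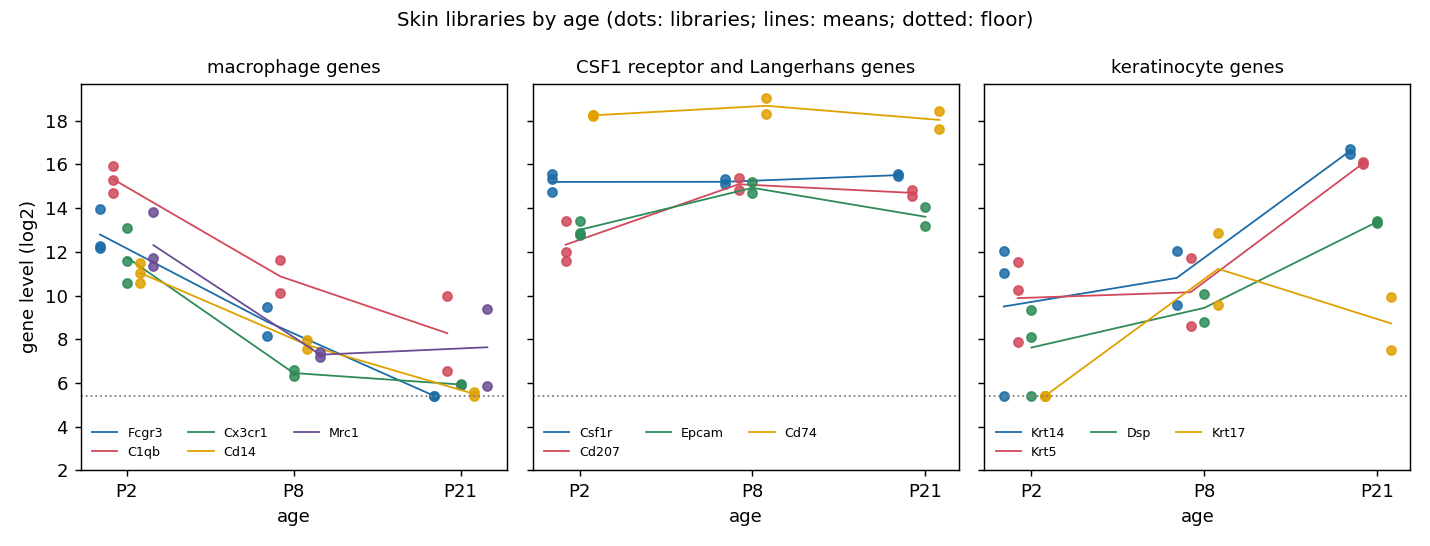
Levels (log2) in the skin libraries (dots) with the mean of each age (lines): macrophage genes (left), Csf1r and Langerhans cell genes (middle) and keratinocyte genes (right). Fcgr3 and Cd14 reach the floor of 5.41 in P21 libraries, Csf1r stays between 14.72 and 15.56, and Krt14 is at 16.71 and 16.5 at P21.

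Csf1r in skin was 15.56, 15.32 and 14.72 at P2 and 15.46 and 15.56 at P21, so the groups overlapped (0.31 ± 0.47, adjusted p = 1, limma). Cd207, which encodes langerin, was 13.39, 11.6 and 11.99 at P2, 15.37 and 14.82 at P8 and 14.55 and 14.85 at P21. It was higher in every P8 and P21 library than in every P2 library, without passing the test (2.37 ± 1.08, adjusted p = 0.55, limma; 0.00804 with library weights). Epcam, an adhesion molecule of Langerhans cells and epithelium, was between 12.76 and 13.41 at P2 and at 14.04 and 13.17 at P21. Of the 13 tested Langerhans cell genes 10 had a higher mean at P21 (median 0.78). Among them 1 was called higher, where 2.47% of all genes were.

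Keratinocyte RNA rose in the same libraries. Of the 12 tested keratinocyte genes 9 were called higher, where 2.47% of all genes were, and the call of 1 of them, Dsp, held without each of the 5 skin libraries. Krt17 could not be tested without either P21 library, and the other 7 calls were each lost without at least 1 library. The list's mean was 6.73, 9.3 and 8.47 at P2, 8.62 and 9.43 at P8 and 12.17 and 12.3 at P21. Krt14, the keratin of basal keratinocytes, was 5.41, 12.03 and 11.05 at P2 and 16.71 and 16.5 at P21 (7.11 ± 1.52, adjusted p = 0.0135, limma; 0.166 at most without skin P21 1 or skin P21 2). Dsc3, a desmosomal cadherin of stratified epithelium, was at 5.41, 5.79 and 5.72 at P2 and 11.12 and 11.39 at P21 (5.62 ± 0.42, adjusted p = 3.46e-06, limma). Col16a1, a collagen chain, was at the floor in all 3 P2 libraries, at 9.78 and 10.72 at P8 and at 13.11 and 13.21 at P21 (7.75 ± 0.47, adjusted p = 6.88e-07, limma). Igfbp3, which binds insulin-like growth factors, likewise went from the floor to 11.89 and 12.39 (6.73 ± 0.47, adjusted p = 2.61e-06, limma). Col16a1, Igfbp3 and Dsc3 reached the level for testing in skin P21 alone, so they could not be tested without either of its libraries and their p-values are too small. The part of keratinocyte RNA in the lower macrophage genes was not tested.

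Liver libraries gained hepatocyte RNA, and most erythroid genes had a lower mean at P21. Of 13 tested hepatocyte genes 10 were called higher (0.805% of all genes) and Afp, alpha-fetoprotein, lower; for 7 of the 10 the call held without each liver library. The mean of the list was 9.89 and 10.26 at P2, 9.2 and 9.35 at P8 and 14.05 and 14.6 at P21. Fgb, a fibrinogen chain, was 6.48 and 7.54 at P2 and 14.57 and 15.07 at P21 (7.8 ± 0.71, adjusted p = 2.09e-05, limma), and Afp was 11.85 and 11.65 against 5.9 and 5.41. Of other genes of hepatocyte type, Ces1c, a plasma carboxylesterase, rose by 8.45 ± 0.78 (adjusted p = 2.27e-05), Serpinc1, antithrombin, by 7.9 ± 0.85 (adjusted p = 0.000118) and Abcc6, a transporter, by 7.33 ± 0.57 (adjusted p = 6.91e-06, all limma). Rhd, a Rh blood group protein of red cell precursors, was 13.3 and 12.92 at P2, 12.79 and 6.31 at P8 and at the floor at P21 (-7.7 ± 0.51, adjusted p = 2.13e-06, limma). Cd79a, a chain of the B cell receptor complex, was 10.71 and 11.26 at P2 and 5.41 and 6.35 at P21 (-5.1 ± 0.49, adjusted p = 3.71e-05, limma). Rhd and Cd79a reached the level for testing through liver P2, the group where they were high, and could not be tested without either of its libraries, so these p-values are too small and support nothing further. The erythroid list as a whole was lower in 13 of 14 tested genes, with a median of -2.88 against -0.26 for all genes. As deposited, 2 were called lower and 1 higher, where 1.42% and 0.805% of all genes were. Car2, a carbonic anhydrase of red cells, fell and the embryonic globin Hbb-y rose, but both calls were lost without any 1 of the 4 liver libraries.

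Kupffer cell genes changed less. Clec4f was 16.22 and 14.33 at P2, 16.82 and 16.38 at P8 and 17.1 and 17.7 at P21 (2.12 ± 1.27, adjusted p = 0.494, limma). Timd4, a phosphatidylserine receptor for dying cells, was 11.62 and 11.88 at P2, 13.7 and 13.72 at P8 and 13.86 and 14.82 at P21 (2.59 ± 1.59, adjusted p = 0.509, limma). For both genes every P21 library was above every P2 library, and P8 was close to P21. Of 15 tested Kupffer cell genes 12 had a higher mean at P21 (median 1.63; 10 and 0.81 after quantile normalization), and none was called. Cd14 was 7.6 and 9.79 at P2 and 11.86 and 12.65 at P21 in liver (3.56 ± 0.81, adjusted p = 0.033, limma; 0.0787 after quantile normalization and up to 0.155 without liver P2 1 or liver P21 2), the opposite sign of its difference in skin. Liver P2 2 stood apart from its partner, with a neutrophil list mean of 10.13 against 6.31 and a mast cell list mean of 9.13 against 5.54.

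The lung comparison has 1 library at P21, whose spread was assumed to be that of the other groups. Chil3, a chitinase-like protein abundant in alveolar macrophages, was 10.17 and 5.41 at P2, 12.32 at P8 and 16.59 at P21 (8.8 ± 1.41, adjusted p = 0.0116, limma), and this call held without either P2 library. Ccl22, a chemokine for T cells, was at the floor in the P2 and P8 libraries and at 10.32 at P21 (4.91 ± 0.84, adjusted p = 0.0211, limma). Nr4a1, an immediate early gene that encodes a nuclear receptor, was among the 0.124% of genes called lower in lung. It fell from 11.25 and 11.04 to the floor (-5.74 ± 1.04, adjusted p = 0.0329, limma), and it was already at 5.72 at P8. The calls of Ccl22 and Nr4a1 were lost without either P2 library. Pparg, the nuclear receptor on which alveolar macrophages depend, was present throughout, at 11.12 and 12.44 at P2 and 11.71 at P21, as was Siglecf (9.87 and 10.51, against 10.46). Of 15 tested alveolar macrophage genes 10 had a higher mean at P21, with a median of 0.98, and Chil3 was the called one (0.155% of all genes were called higher).

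The course at P8 differed between the groups of genes. These genes were chosen by their P2 and P21 values and P8 was not tested, so the counts are a description. In brain the P8 mean of 61 of 72 called genes was nearer to P2 than to P21, and in liver that of 212 of 287. In kidney it was nearer to P2 for 283 and nearer to P21 for 221. In skin the genes that fell and those that rose had a different course: of 91 called lower, 72 were nearer to P21 at P8 (median 78.4% of the way), whereas of 319 called higher, 245 were still nearer to P2 (median 13.4%).

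**Figure D5:**
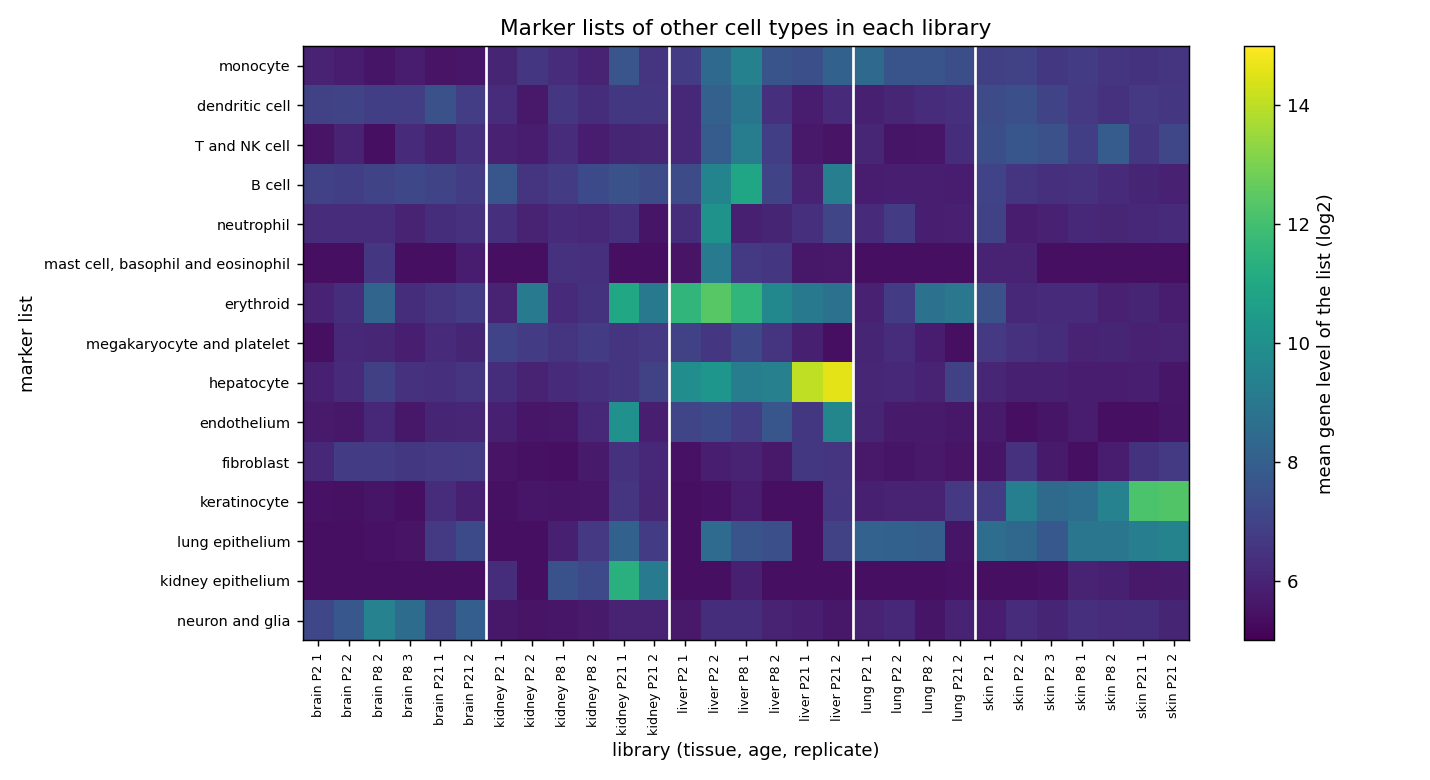
Mean level (log2) of each marker list of other cell types (rows) in every library (columns, by tissue and age, white lines between tissues). The hepatocyte list reaches 14.05 and 14.6 in liver P21, the keratinocyte list 12.17 and 12.3 in skin P21 and the kidney epithelium list 11.33 and 9.14 in kidney P21.

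Markers of the organ's own parenchyma were thus highest at P21 in kidney, liver and skin, as the map of marker lists shows. In lung the 3 detected lung epithelium genes were lower at P21, with a list mean of 8.15 and 8.1 at P2 and 5.56 at P21. The kidney epithelium list was at 5.41 to 6.01 in all libraries of other tissues, and the hepatocyte list at 5.59 to 6.98. Whether these markers came from other sorted cells, engulfed material or free RNA was not tested.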

How the data were processed

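Sorted cells were profiled as bulk SMART-Seq2 libraries. The authors deposited 1 table of values on a log2 scale for 37521 Ensembl transcripts in 93 libraries; the labels do not say how it was normalized. The submitters' processing notes name Bowtie 1.1.1, DESeq2 and mm10, without their roles. The table holds no read counts, so depth is unknown and no counting interval can be given.

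Each library has a band of low values that stands for undetected transcripts. Its level differs between libraries, from 2.85 to 4.91 in the 29 used here, so values under a common floor (5.41, which is 0.5 above the highest band) were set to the floor. Transcripts were summed to genes above the floor through GENCODE vM21; 36703 matched 14181 genes and 818 did not match. Gene levels of the 20 P2 and P21 libraries were fitted with limma 3.58.1 in R 4.3.3, with a mean-variance trend and Benjamini-Hochberg adjustment over all genes tested. The shared comparison had tissue as a covariate and took genes at 6.41 or above in at least 9 libraries. The age-by-tissue F test and the contrasts within tissues took genes at that level in at least 2 libraries. The lung P21 group has 1 library, whose spread was assumed to be that of the other groups. The offsets within the low band divide the 93 libraries into sets of 64 and 29, of which brain P21 2 and skin P21 2 are in the smaller; nothing in the labels names these sets. The fits were tested on simulated data.

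Named genes are the called shared genes and the 10 genes of smallest adjusted p in the F test. The 3 F test genes with the largest departure in each tissue were added. From each list came up to 4 genes that passed the F test, those with the largest departure in any tissue. Fixed defining genes complete the set, whether or not they passed. The members and lists were chosen with earlier results of these data known. Abcg1, Afp, Car2, Ccl6, Ccl7, Ccl9, Ccnf, Cenpe, Csf2rb, Cxcl10, Epcam, Gdf15, Hbb-y, Krt14, Lrp2, P2ry12, Syt1, Tgfbi, Tmem119 and Trem2 fall outside that rule and were chosen after their values were seen. Promoters are from RefSeq (GRCm38.p6). A few genes of the lists are not reported here.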

Additional observations from a re-analysis of the deposited data

Results flagged for a closer look

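For the genes below the difference between P21 and P2 itself differed between the 5 tissues (age-by-tissue F test in limma, Benjamini-Hochberg adjusted p); values not given here stand in the text above. Genes that differed in skin were Col16a1 (adjusted p = 0.000203), Igfbp3 (0.000443), Pcdh7, a protocadherin (0.000443), Dsc3 (0.000443) and Serinc2 (0.000531), all higher at P21, and Fcgr3 (0.000443), C1qb (0.00245) and C1qc (0.00596), all lower. Serinc2 was at the floor in the 3 skin P2 libraries, at 12.01 and 11.9 at P8 and at 10.69 and 10.35 at P21. Col16a1, Igfbp3, Pcdh7, Dsc3 and Serinc2 in skin, and Rhd and Cyp2d10 in liver, reached the level for testing through the 1 group where they were high and lay at or near the floor elsewhere, without spread, so their p-values are too small. In liver they were Rhd (0.000203), Cyp2d10, a cytochrome P450 (0.000443), Abcc6 (0.000531), Ces1c (0.00158) and Serpinc1 (0.00245).

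In kidney they were Cd74 (adjusted p = 0.00108), H2-Eb1 (0.00328), Gpx3 (0.0209) and Ak3, a mitochondrial adenylate kinase (0.0106; limma). Ak3 was at the floor in both kidney P2 libraries and at 12.55 and 12.05 at P21, and in brain it was 9.2 and 9.94 at P2 and at the floor at P21. Spp1 (0.000443), Top2a (0.00786) and Fxr2, an RNA-binding protein (0.0499), were marked for brain. Fxr2 was 5.41 and 5.49 at P2 and 9.73 and 11.29 at P21 in brain.

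In lung they were Chil3 (adjusted p = 0.0355), the chemokine Ccl2 (0.0423) and the pseudogene Rpl3-ps1 (0.0411; limma), which can share reads with its parent gene. Ccl2 was 12.81 and 11.99 at P2 and 8.6 and 5.41 at P21 in kidney, and at the floor at P2 and at 10.93 at P21 in lung. Cttn, the actin-binding protein cortactin, had an adjusted p of 0.00103: it was 12.32 and 10 at P2 and 5.41 and 6.39 at P21 in liver, and 5.46 and 5.41 at P2 and 13.17 at P21 in lung. Groups had at most 3 libraries, too few to look for single libraries far from their group.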

How the results depend on the processing

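The shared count of 1 gene became 0 with a floor 1.5 above the highest band, without the filter, with genes tested from 2 libraries, with P8 in the fit, with the library set as a covariate, and without brain, liver or skin. It became 3 without a floor, without lung and without libraries of few transcripts, 8 with the number of transcripts as a covariate, 33 for the unweighted mean of the tissues, 37 after quantile normalization and 270 with library weights. Leaving out 1 library gave 0 to 4. Taken alone (added after seeing the data), the tissues gave 72 (brain), 504 (kidney), 287 (liver), 36 (lung) and 410 (skin).

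The age-by-tissue count of 636 became 282 without a floor, 341 with the number of transcripts as a covariate, 402 without brain and 0 without skin, and 133 and 142 for genes tested from 9 and 15 libraries (both added after seeing the data). Leaving out 1 library gave 173 to 888. The same replicate numbers recur in the groups, and deviations of same-numbered libraries correlated by -0.04 to 0.04. In groups of 2 libraries the deviations mirror each other, and lung could not be compared. Whether the numbers pair libraries therefore cannot be told from these values. With the replicate block the shared count was 0 (684 genes at an unadjusted p under 0.05) and the age-by-tissue count 0 (1829, limma).

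The call of Cenpc1 was lost in 13 of 39 alternatives, among them without kidney (adjusted p = 0.0547, limma), where another gene kept the count at 1. Cenpc1 was not tested without liver, without skin or without libraries of few transcripts, and these settings are not among the 39. The 15 fixed defining genes that were tested were not called in the shared comparison and gained a call in 6 alternative values. The remaining named genes were not followed through the alternatives of the shared comparison. For 77 genes in the age-by-tissue test, 2343 of 3031 stayed and 688 were lost. These are adjusted p-values of an F test, which has no sign, so they cannot show whether a difference changed direction. With 1 to 3 libraries a group, unknown depth and a floor, smaller differences cannot be told from the spread.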

Other observations

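In skin the oxidase of phagocytes fell with the macrophage genes. Cybb, its catalytic chain, was 12.69, 11.25 and 11.15 at P2 and at the floor in all 4 libraries of P8 and P21 (-6.29 ± 1.18, adjusted p = 0.00496, limma), and Rac2, its small GTPase, fell by 5.05 ± 0.96 (adjusted p = 0.00538, limma). Both calls were lost without skin P21 1 or skin P21 2 (adjusted p up to 0.151). Lpl, which rose in kidney, fell in skin from 11.48, 10.24 and 10.67 to 7.41 and 7.08 (-3.55 ± 0.57, adjusted p = 0.00139, limma; 0.0667 without skin P21 2).

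Il1b, the inflammatory cytokine, was at the floor in both kidney P2 libraries and at 10.83 and 10.26 at P21 (5.14 ± 1, adjusted p = 0.0124, limma; 0.0689 without kidney P21 1). In lung it was 9.68 and 11.59 at P2 and at the floor at P21 (-5.22 ± 1.22, adjusted p = 0.109, limma). Gdf15, a stress-induced cytokine, was 10.24 in the higher lung P2 library, with the other within 0.1 of it. In lung it was at the floor at P8 and P21 (log2 difference between P21 and P2 -4.81). Gdf15 reached the level for testing through lung P2 alone, where it was high. It could not be tested without either of those libraries, so no p-value is given. Arg1, arginase 1, was at the floor in liver at P2 and at 11.08 and 9.36 at P21 (4.81 ± 0.78, adjusted p = 0.0032, limma), beside hepatocyte RNA, which also holds it; the part of that RNA was not tested.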
